A study of Mus musculus with 15 samples.

Results

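The 5 mouse brain tumour libraries with the highest interferon score were set against the 5 with the lowest, out of 15 libraries in all. The score of a library was the mean of log2(CPM + 1) of Ifit1, Isg15 and Irf7, where CPM is the reads of a gene per 1000000 reads of its library counted in genes. The 5 interferon-high libraries scored 6.00 to 6.996, the 5 in the middle 4.36 to 5.73 and the 5 interferon-low libraries 2.44 to 3.16. The members just inside and just outside the upper limit scored 6.00 and 5.73, and those at the lower limit 3.16 and 4.36. Because the sets were chosen on measured values of the same libraries, everything that separates them is given here as a description. The 3 score genes were left out of the gene counts.

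The tumours came from the frontal cortex of C57BL/6 mice carrying Nestin Tv-a and p53 fl/fl, with or without ATRX fl/fl. Tv-a is the receptor for the avian RCAS virus and Nestin drives it in neural progenitors, so infection is limited to cells that have expressed Nestin. DF-1 cells, a chicken fibroblast line that makes the virus, delivered RCAS-Cre and RCAS-PDGFA to every mouse, together with RCAS-H3.3G34R-GFP or RCAS-H3.3WT-GFP. Loss of p53 and forced PDGFA are therefore shared by all groups. Tumours were collected when mice reached a functional end point, so the time since injection is not fixed, and no mouse age is stated. Libraries fell into 4 groups by genotype and histone: Atrx floxed with H3.3G34R (n = 4), Atrx floxed with H3.3WT (n = 4), Atrx intact with H3.3G34R (n = 3) and Atrx intact with H3.3WT (n = 4), called floxed G34R, floxed WT, intact G34R and intact WT below. H3.3G34R is the histone H3.3 mutation of a class of hemispheric glioma, and Atrx encodes a chromatin remodeller that deposits H3.3. Poly(A) RNA of whole tumour pieces was sequenced, to 22807315 to 35679129 reads in genes per library.

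Interferons are secreted proteins made when cells sense foreign or misplaced nucleic acid. Type I interferons bind Ifnar1 and Ifnar2, and the kinases Jak1 and Tyk2 then activate a transcription factor complex with Stat2 and Irf9 that binds interferon-stimulated response elements (ISREs) in promoters. Interferon gamma acts through a different element, the gamma-activated site (GAS). Brain tumours contain many microglia and macrophages beside the tumour cells, and both kinds of cell can respond.

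The promoters of the 3 score genes are printed with those of 4 genes that were higher in the interferon-high tumours, to show where the response element stands. The 4 are the members with the smallest p that have a window among the antiviral effectors, the interferon-induced GTPases, the MHC class I genes and the receptor and JAK-STAT genes. Each window runs from 250 bases before to 50 bases after the RefSeq start on GRCm38.p6, on the strand of the gene. Capitals mark each match to the ISRE core, which is GAAA, any 2 bases and GAAA again, on either strand (TTTC, any 2 bases and TTTC on the other).
Ifit1, chr19:34640639-34640938, plus strand: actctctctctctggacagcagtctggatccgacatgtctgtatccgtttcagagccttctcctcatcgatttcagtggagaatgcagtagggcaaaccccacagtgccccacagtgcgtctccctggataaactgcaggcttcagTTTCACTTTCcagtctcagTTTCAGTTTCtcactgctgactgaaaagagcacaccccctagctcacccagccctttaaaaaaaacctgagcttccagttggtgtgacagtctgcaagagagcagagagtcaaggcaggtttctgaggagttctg
Isg15, chr4:156200769-156201068, minus strand: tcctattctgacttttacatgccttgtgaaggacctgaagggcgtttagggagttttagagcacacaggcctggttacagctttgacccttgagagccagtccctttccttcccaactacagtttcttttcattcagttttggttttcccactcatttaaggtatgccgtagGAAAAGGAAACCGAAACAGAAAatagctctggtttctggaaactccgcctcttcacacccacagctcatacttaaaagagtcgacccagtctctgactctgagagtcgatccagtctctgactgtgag
Irf7, chr7:141266375-141266674, minus strand: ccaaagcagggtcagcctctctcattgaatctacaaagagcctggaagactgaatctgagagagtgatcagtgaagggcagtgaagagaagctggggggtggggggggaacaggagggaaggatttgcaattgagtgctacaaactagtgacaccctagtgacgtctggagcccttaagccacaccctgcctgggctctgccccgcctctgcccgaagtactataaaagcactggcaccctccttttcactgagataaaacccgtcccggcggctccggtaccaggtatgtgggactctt
Ifi44, chr3:151749861-151750160, minus strand: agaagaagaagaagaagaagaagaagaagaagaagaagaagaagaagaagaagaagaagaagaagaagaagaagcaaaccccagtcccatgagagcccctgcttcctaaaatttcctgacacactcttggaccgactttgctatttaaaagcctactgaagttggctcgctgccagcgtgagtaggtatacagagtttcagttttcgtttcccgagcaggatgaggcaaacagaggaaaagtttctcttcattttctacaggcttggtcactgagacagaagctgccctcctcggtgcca
Gbp2, chr3:142620413-142620712, plus strand: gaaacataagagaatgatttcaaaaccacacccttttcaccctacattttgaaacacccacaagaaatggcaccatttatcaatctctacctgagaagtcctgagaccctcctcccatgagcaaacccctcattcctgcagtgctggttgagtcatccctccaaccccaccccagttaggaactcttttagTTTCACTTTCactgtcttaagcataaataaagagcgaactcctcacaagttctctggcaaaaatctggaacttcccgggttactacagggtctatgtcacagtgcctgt
H2-T23, chr17:36032652-36032951, minus strand: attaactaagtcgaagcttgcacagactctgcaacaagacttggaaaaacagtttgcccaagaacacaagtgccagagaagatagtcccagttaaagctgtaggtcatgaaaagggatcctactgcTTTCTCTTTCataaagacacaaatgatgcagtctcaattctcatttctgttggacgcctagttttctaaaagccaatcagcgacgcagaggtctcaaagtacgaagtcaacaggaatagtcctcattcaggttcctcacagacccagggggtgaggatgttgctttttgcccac
Stat2, chr10:128270248-128270547, plus strand: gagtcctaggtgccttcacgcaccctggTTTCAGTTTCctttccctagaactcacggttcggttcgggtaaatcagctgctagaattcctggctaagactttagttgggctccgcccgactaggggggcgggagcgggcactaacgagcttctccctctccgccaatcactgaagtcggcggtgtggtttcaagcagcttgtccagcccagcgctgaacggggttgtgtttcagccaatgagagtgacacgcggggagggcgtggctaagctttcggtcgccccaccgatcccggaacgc

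Ifit1 has 2 matches, which begin 104 and 85 bases before the start. Isg15 has 3 overlapping matches in a single run, the first beginning 78 and the last 66 bases before the start. Gbp2, H2-T23 and Stat2 have 1 match each, at 59, 124 and 222 bases before the start. No match stands in the windows of Irf7 and Ifi44, which says only that these letters are not there. The core was in 3.44% of all 32851 promoter windows. Of the 111 genes called higher in interferon-high tumours, 81 had a window and 37 of those genes (45.7%) held the core, against 451 of 12139 tested genes with a window (3.72%). Among the GTPases it was in 10 of 11 genes with a window, and among the antiviral effectors in 28 of 59. The 111 genes were picked by a split on 3 genes of the same pathway. Nothing is therefore read from the shares of called genes, here or for GAS below. The GAS letters TTCNNNGAA, which read the same on both strands and can overlap an ISRE core, were in 16 of 81 called genes (19.8%) and in 975 of 12139 tested genes (8.03%).

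Every group had libraries in both sets. The interferon-high set held floxed WT replicate 4, floxed G34R replicates 4 and 1, intact G34R replicate 1 and intact WT replicate 3. The interferon-low set held floxed WT replicate 3, floxed G34R replicate 2, intact G34R replicate 2 and intact WT replicates 1 and 2. By Atrx status, 3 floxed and 2 intact libraries were in the high set, and 2 floxed and 3 intact libraries in the low set. By histone, 3 H3.3G34R and 2 H3.3WT libraries were in the high set, and 2 H3.3G34R and 3 H3.3WT libraries in the low set. Within each group the score spanned high and low values. It averaged 5.30 ± 1.45 in floxed G34R and 4.93 ± 1.61 in floxed WT tumours, and 4.39 ± 1.79 in intact G34R and 4.24 ± 1.76 in intact WT tumours (SD, n = 4, 4, 3 and 4).

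**Figure D1:**
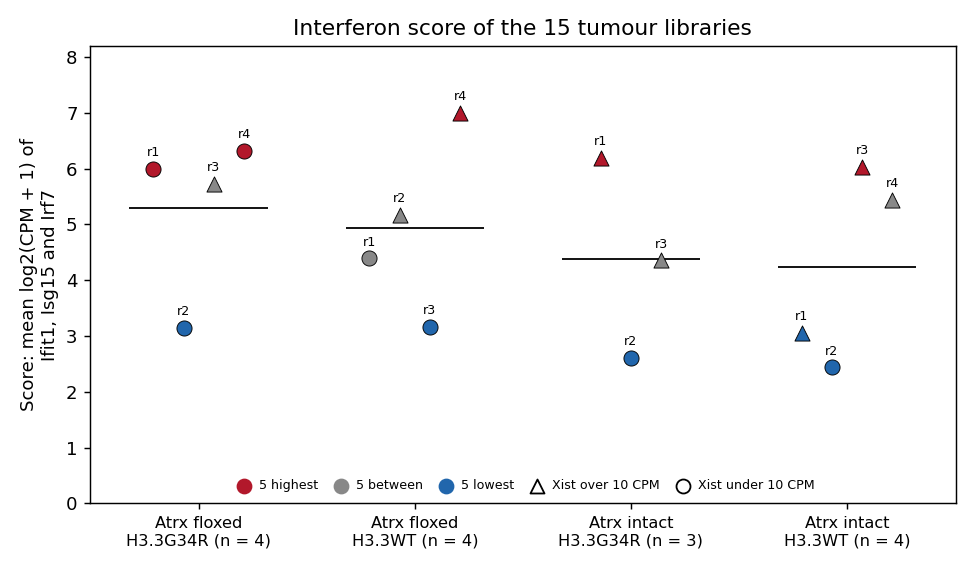
Interferon score of each of the 15 libraries (y axis, mean log2(CPM + 1) of Ifit1, Isg15 and Irf7) by group, with the group mean as a line. Red points are the 5 highest, blue the 5 lowest and grey the 5 between; triangles mark libraries with Xist over 10 CPM, and r1 to r4 are replicates. All 4 groups hold a red and a blue point.

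Atrx was lower in floxed tumours, at 48.9 to 115 CPM with a median of 86.3, than in intact tumours, at 169 to 311 CPM with a median of 244; the fit over 15 libraries gave a log2 difference of -1.49 ± 0.20 (SE; limma, adjusted p = 0.00391), and the levels did not overlap. Intact WT replicate 3, in the interferon-high set, stood apart: its 18 mature neuron markers summed to 10516 CPM, against 67.9 to 1121 CPM in the other 14 libraries, and its oligodendrocyte progenitor markers to 942 CPM, against 6684 CPM or more elsewhere. It also had the lowest Pdgfa, 40.6 CPM. In bulk RNA, fewer cells of a type and less RNA per cell cannot be told apart. Xist, transcribed from the inactive X chromosome of females, was over 10 CPM in 3 of 5 interferon-high and in 1 of 5 interferon-low libraries. The labels do not state that each library came from a separate mouse, and 3 pairs of libraries share the first code of their titles, among them both floxed G34R libraries of the high set. A second code in the titles differs within each pair. Intact G34R replicates 2 and 3, which are such a pair, had Xist at 0.262 and 1588 CPM, as from mice of different sex.

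Across 16888 genes tested, 111 were called higher in interferon-high tumours (0.657% of the tested genes) and 4 lower (0.0237%), 0.681% in all, by limma with an adjusted p under 0.05. Since the sets were chosen on 3 genes of the same pathway, nothing is read from this share. Without intact WT replicate 3 the counts were 126 higher and 3 lower, and 103 of the 115 genes were called again. The total was 45 to 67 without floxed G34R replicate 4, intact G34R replicate 1 or 2, floxed WT replicate 3, or intact WT replicate 1 or 2, each left out in turn, and 184 without floxed G34R replicate 1; all 115 genes kept their direction each time. Of the 111 genes, 79 belonged to the interferon, antigen presentation or chemokine lists described here. Without intact WT replicate 3 the antiviral effectors had a median log2 difference of 2.09 with 44 called, the GTPases 3.44 with 12, the MHC class I genes 2.503 with 14, the class II genes 2.04 with 6 and the chemokines 2.72 with 4. Calls within lists were fewer without other libraries. Effector calls were 22 without intact G34R replicate 2, 23 without intact G34R replicate 1 and 24 without intact WT replicate 2, with medians of 1.97, 1.97 and 1.96. In the same order, GTPase calls were 3, 4 and 3, class I calls 3, 3 and 4, class II calls 5, 4 and 4, and receptor and JAK-STAT calls 0 each time. Without floxed G34R replicate 4, floxed WT replicate 3 or intact WT replicate 1, GTPase calls were 5 each time and class I calls 3, 4 and 5. Libraries of the 2 sets did not overlap in 289 genes that were higher (1.71% of those tested) and 177 that were lower (1.05%). The mean of the middle libraries lay between those of the 2 sets for 105 of the 111 genes (94.6%), and for 45.9% of all genes. The same score placed the middle libraries, and the 111 genes were picked by the split, so nothing is read from this difference either.

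The means of the score genes differed 14.4-fold for Isg15 and 12.2-fold for Ifit1. Isg15, a ubiquitin-like protein that is conjugated to other proteins, had 125, 101, 95.4, 78.8 and 58.2 CPM in the interferon-high libraries in order of score, and 7.01, 6.68, 6.92, 5.63 and 5.56 CPM in the interferon-low ones. Ifit1, which binds foreign RNA caps, had 37.7 to 83.2 CPM in high and 2.56 to 6.31 CPM in low libraries. Irf7, the transcription factor that amplifies type I interferon, had 59.1 to 195 CPM in high and 5.84 to 11.8 CPM in low libraries. Irf7 was highest in floxed WT replicate 4, which also had the highest Ifit1 and Isg15.

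Interferon transcripts were close to the limit of detection in both sets. Of 17 listed ligands 7 had a read in any library, and none passed the filter of a mean of 0.5 CPM. Ifnb1, encoding interferon beta, had 0.0342, 0, 0.836, 0 and 0.145 CPM in the high libraries and 0, 0.0369, 0, 0 and 0 CPM in the low ones. Its highest value was 22 reads, in intact G34R replicate 1, and 3 high libraries had 1 read or none. Ifng, encoding interferon gamma, had 2 to 8 reads in 3 of 5 high libraries and no read in the others, floxed WT replicate 4 among them. It had 1 to 5 reads in 4 of 5 middle libraries, and no read in any of the 5 low libraries. With 3 counts as the floor, a count of 0 allows a level of up to 0.0841 to 0.132 CPM in the high libraries and up to 0.0981 to 0.120 CPM in the low libraries. These limits cover counting error only.

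Nucleic acid sensors, which start interferon production, were listed together with adaptors and factors that act after them. The 18 listed symbols hold both names of Cgas and of Tmem173, so they stand for 16 genes, and all 16 were tested. Of these, 11 were higher in the high set and 3 were called, against 0.657% of all tested genes called higher. The median log2 difference was 0.78 over the 16, against -0.04 over all genes. Zbp1, a sensor of Z-form nucleic acid, had 44.5, 52.7, 54.5, 42.6 and 11.7 CPM in high libraries and 1.73, 2.22, 2.02, 1.995 and 1.64 CPM in low ones, a log2 difference of 3.94 ± 0.39 (SE). The lowest high library, floxed G34R replicate 1, was still above every low library. Ifih1, encoding the RNA sensor MDA5, had 31.8 to 85.5 CPM in high and 3.04 to 12.8 CPM in low libraries, and Dhx58, encoding LGP2, 10.8 to 25.9 and 2.51 to 4.44 CPM. The adaptor Mavs had 23.1 to 47.3 CPM in high and 29.0 to 52.8 CPM in low libraries, with overlapping sets and a log2 difference of -0.30. Cgas, the DNA sensor, had 6.05 to 14.3 CPM in high and 7.51 to 24.9 CPM in low libraries. Irf3, the factor that switches on Ifnb1, differed by -0.01 on the log2 scale.

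Of 13 receptor and JAK-STAT genes 11 were higher in the high set, with a median log2 difference of 0.28. Of the 13, 2 were called, Stat2 among them, against 0.657% of all tested genes called higher. Stat2 had 339, 100.4, 151, 120.4 and 109 CPM in high libraries and 43.1, 45.9, 48.9, 42.0 and 33.7 CPM in low ones (log2 difference 1.78 ± 0.30). Irf9, its partner, had 70.3 to 217 CPM in high and 16.5 to 54.8 CPM in low libraries (1.53 ± 0.38), and was not called. Ifnar1, a chain of the type I receptor, had 67.1 to 91.2 CPM in high and 77.5 to 119.7 CPM in low libraries (-0.37 ± 0.18), with overlapping sets. Ifnar2 had 35.2 to 43.0 CPM in high and 28.1 to 37.7 CPM in low libraries. Among the 6 other IRF factors none was called, and the differences were positive, with a median of 0.58; 1 of the 6 had a mean under 0.5 CPM in the low set. A total of 5 passed the filter without intact G34R replicate 1, intact WT replicate 3 or intact WT replicate 2, where the medians were 0.91, 1.10 and 0.73. Irf1, which responds to interferon gamma, had 47.5 to 308 CPM in high and 21.4 to 52.0 CPM in low libraries (1.58 ± 0.47), and intact WT replicate 3 was the high library that overlapped.

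**Figure D2:**
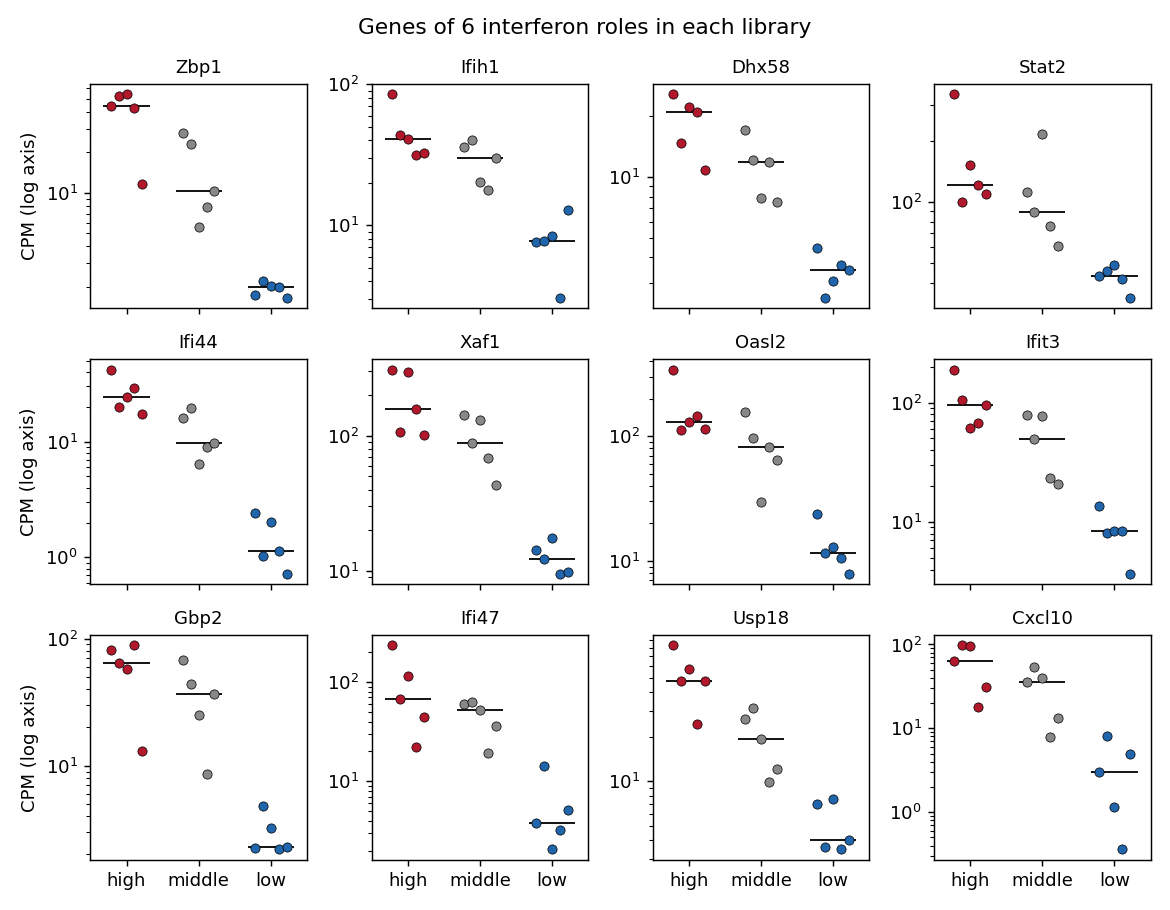
CPM (log axis) of 12 genes of 6 roles in the 5 interferon-high, 5 middle and 5 interferon-low libraries; each point is a library and lines are medians. The roles are sensors (Zbp1, Ifih1, Dhx58), a STAT factor (Stat2), antiviral effectors (Ifi44, Xaf1, Oasl2, Ifit3), GTPases (Gbp2, Ifi47), a brake (Usp18) and a chemokine (Cxcl10). No high library overlaps a low library for any of the 12 genes.

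Antiviral effectors, a list of interferon-stimulated genes of which not all act on viruses directly, made up 45 of the 111 genes called higher. Of 73 listed genes 70 were tested, all 70 were higher in the high set and 50 did not overlap, with a median log2 difference of 2.06. Over all tested genes, 0.657% were called higher and 1.71% were higher without overlap. Of the tested effectors 5 had a mean under 0.5 CPM in the low set and so passed the filter only through the high libraries. Summed over the list, effectors made up 6808, 3825, 4351, 3299 and 3248 CPM in high libraries and 1304, 1314, 1526, 1085 and 1014 CPM in low ones. Ifi44, an interferon-induced cytoplasmic protein, had 42.0, 19.8, 24.4, 29.2 and 17.2 CPM in high libraries and 2.44, 1.03, 2.02, 1.14 and 0.721 CPM in low ones (log2 difference 3.78 ± 0.33). Xaf1, which promotes cell death, had 101 to 308 CPM in high and 9.55 to 17.6 CPM in low libraries (3.75 ± 0.34). Oasl2, of the oligoadenylate synthetase family, had 112 to 343 CPM in high and 7.89 to 23.99 CPM in low libraries (3.56 ± 0.36). Ifit3 had 61.6 to 189 CPM in high and 3.68 to 13.5 CPM in low libraries (3.53 ± 0.36); Ifit3 and Ifit3b are near-identical copies, and the division of reads between them is uncertain. Mx1, of a family of dynamin-like GTPases, was low but even within each set, at 7.42 to 9.31 CPM in high and 0.593 to 1.23 CPM in low libraries (2.57 ± 0.24).

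Not every effector followed. Ifit2 and Rsad2, chosen here after their values were seen, are induced by the same factors as Ifit1. Ifit2, a neighbour of Ifit1 and Ifit3 on chromosome 19, had 123, 76.3, 62.3, 52.3 and 111 CPM in high libraries and 62.1, 60.6, 48.9, 81.8 and 38.4 CPM in low ones, so that the sets overlapped, with a log2 difference of 0.51. Rsad2, encoding viperin, had 14.7 to 59.6 CPM in high and 6.64 to 32.2 CPM in low libraries, with a log2 difference of 1.33. The sets overlapped for Rsad2 too. Adar, the RNA editing enzyme, differed by 0.78 on the log2 scale, with overlapping sets.

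**Figure D3:**
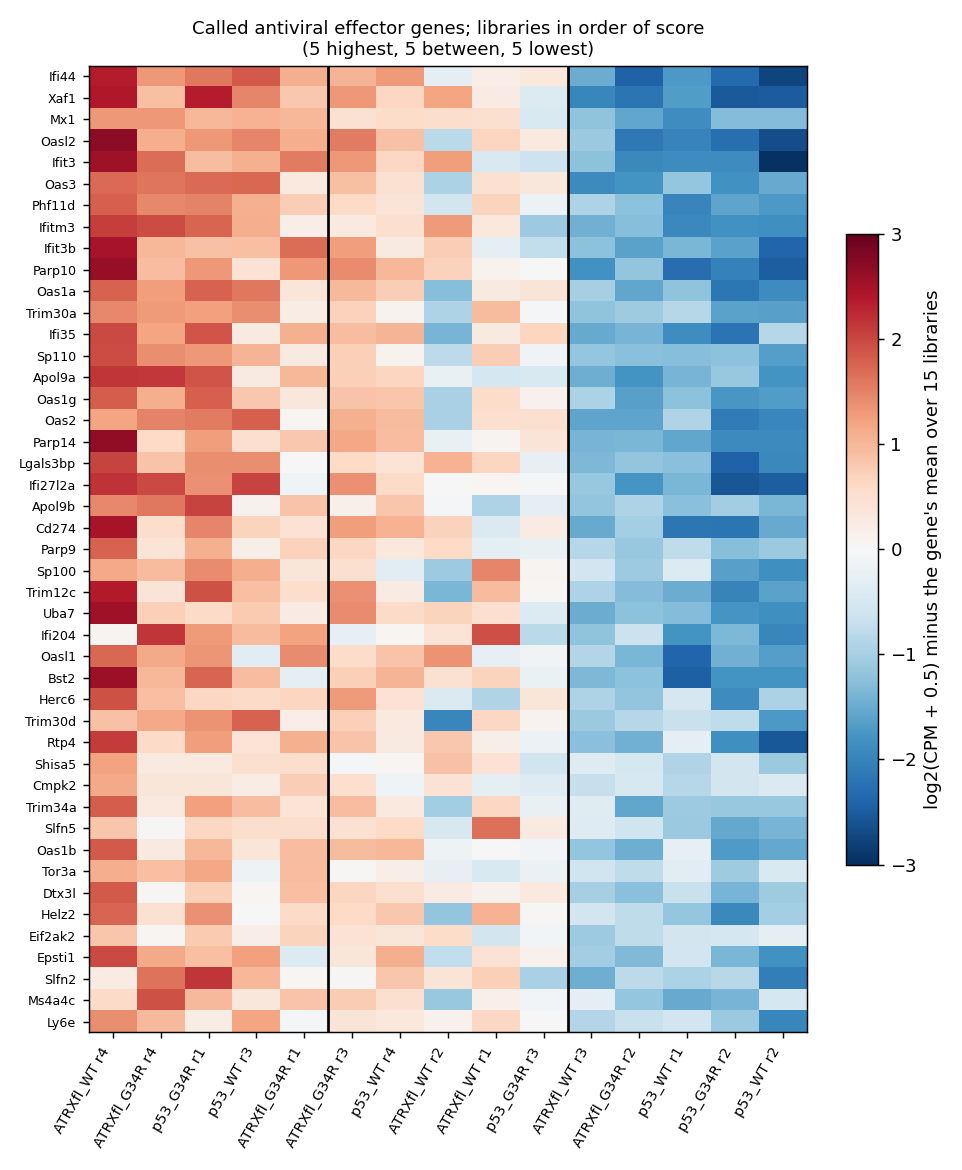
The 45 called antiviral effectors (rows, smallest p at the top) in the 15 libraries (columns, highest score on the left). Colour is log2(CPM + 0.5) minus the mean of the gene over 15 libraries; vertical lines divide the 5 highest, 5 middle and 5 lowest libraries. The left block is mostly red, the right block blue and the middle block between. Column names starting with ATRXfl are Atrx floxed and those starting with p53 Atrx intact libraries, and r is the replicate.

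Interferon-induced GTPases, which attack membranes around intracellular pathogens, had a median log2 difference of 3.32. Of 18 listed genes 16 were tested, and all 16 were higher in the high set. A total of 11 were called, against 0.657% of all tested genes called higher, and 14 did not overlap, against 1.71%. In the low set 4 of the 16 had a mean under 0.5 CPM. Their summed level was 4607, 999.9, 1376, 622 and 818 CPM in high libraries and 140.3, 390.0, 129, 109 and 93.3 CPM in low ones. Floxed WT replicate 4 was the highest of all 15 libraries, and floxed G34R replicate 2 the highest of the low set. Gbp2 had 81.0, 64.4, 58.2, 88.8 and 13.02 CPM in high and 2.27, 4.80, 3.24, 2.19 and 2.28 CPM in low libraries (3.96 ± 0.48). Ifi47 had 22.1 to 235 CPM in high and 2.06 to 14.3 CPM in low libraries (3.81 ± 0.63). Igtp, also called Irgm3, had 80.7 to 1305 CPM in high and 6.02 to 37.9 CPM in low libraries. Several of these genes lie in families of similar copies, such as Tgtp1 and Tgtp2, for which the assignment of reads is uncertain.

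Of 8 brakes on the pathway only Usp18 was called, and 5 of 8 differences were positive. Usp18, which removes Isg15 from proteins and blocks the type I receptor, had 83.5, 48.1, 57.8, 24.4 and 47.7 CPM in high libraries and 7.01, 3.62, 7.63, 3.47 and 4.003 CPM in low ones (3.19 ± 0.34). Socs1, an inhibitor of JAK kinases, had 5.27 to 17.8 CPM in high and 2.28 to 6.29 CPM in low libraries (1.49 ± 0.37), overlapping through intact WT libraries on both sides. The median over the list was 0.84, and 0.52 without floxed G34R replicate 4, where Socs3 had 829 CPM.

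Of 10 listed chemokines 9 were tested, and all 9 differences were positive, with a median of 2.54. Of the 9, 2 were called, Cxcl10 and Ccl12, against 0.657% of all tested genes called higher. With summed macrophage markers as a covariate the chemokine median was 1.0002, and with Apoe left out of that sum it was 1.97. Neither fit called a chemokine, and the first called no gene at all. The sum with Apoe did not overlap between the 2 sets, so nothing is read from these medians. Calls ranged from 1 to 4 when each library was left out in turn. Cxcl10, which attracts activated T cells, had 63.8, 98.1, 97.0, 18.1 and 31.5 CPM in high libraries and 3.002, 8.12, 1.15, 0.360 and 4.88 CPM in low ones (4.12 ± 0.67). Ccl12, a monocyte attractant, had 6.27 to 36.7 CPM in high and 0.474 to 1.54 CPM in low libraries (3.49 ± 0.46). Ccl5 had 4.07 to 22.7 CPM in high and 0.520 to 3.16 CPM in low libraries (2.54 ± 0.51) and was not called. Markers of the T and NK cells that these chemokines attract were low in both sets, at 10.3 to 26.8 CPM summed over 20 genes in high and 7.77 to 23.4 CPM in low libraries. Of 9 of them tested, 5 had positive differences, with a median of 0.15. Cd3e, a T cell receptor chain, had 0.137 to 0.364 CPM in high and 0 to 1.03 CPM in low libraries.

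MHC class I genes carry peptides to T cells. All 21 MHC class I genes were higher in the high set, with a median log2 difference of 2.26. Of the 21, 9 were called, against 0.657% of all tested genes called higher, and 16 did not overlap, against 1.71%. Their summed level was 11486, 6851, 7659.7, 2880.0 and 5136 CPM in high libraries and 1084, 2361, 968, 717 and 1819 CPM in low ones. B2m, the shared light chain, had 746 to 3245 CPM in high and 170.1 to 629.7 CPM in low libraries (2.26). H2-T23, a nonclassical heavy chain, had 38.8 to 225 CPM in high and 6.51 to 13.7 CPM in low libraries (3.04 ± 0.40). Psmb8, a subunit of the immunoproteasome, had 68.8 to 253 CPM in high and 16.05 to 42.7 CPM in low libraries (2.71 ± 0.39). H2 heavy chain genes are similar in sequence, and reads may be shared between them.

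MHC class II genes, typical of professional antigen-presenting cells, had 11 of 11 positive differences and a median of 1.89. A total of 6 were called, against 0.657% of all tested genes called higher. In the low set 1 of the 11 had a mean under 0.5 CPM and so passed the filter only through the high libraries. Cd74, the invariant chain, had 511, 913, 1205, 444 and 646 CPM in high libraries and 156, 241, 87.5, 149.8 and 86.3 CPM in low ones (2.37 ± 0.35). H2-Aa had 146 to 393 CPM in high and 29.5 to 81.5 CPM in low libraries (2.25 ± 0.33). Ciita, the master activator of class II genes, had 3.60 to 66.9 CPM in high and 2.24 to 5.17 CPM in low libraries, with overlapping sets and no call. Dendritic cell markers, a class II positive cell type, summed to 54.9 to 77.1 CPM over 10 genes in high and 25.5 to 44.3 CPM in low libraries, with 7 of 8 tested positive and none called, and their part in the result was not tested.

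**Figure D4:**
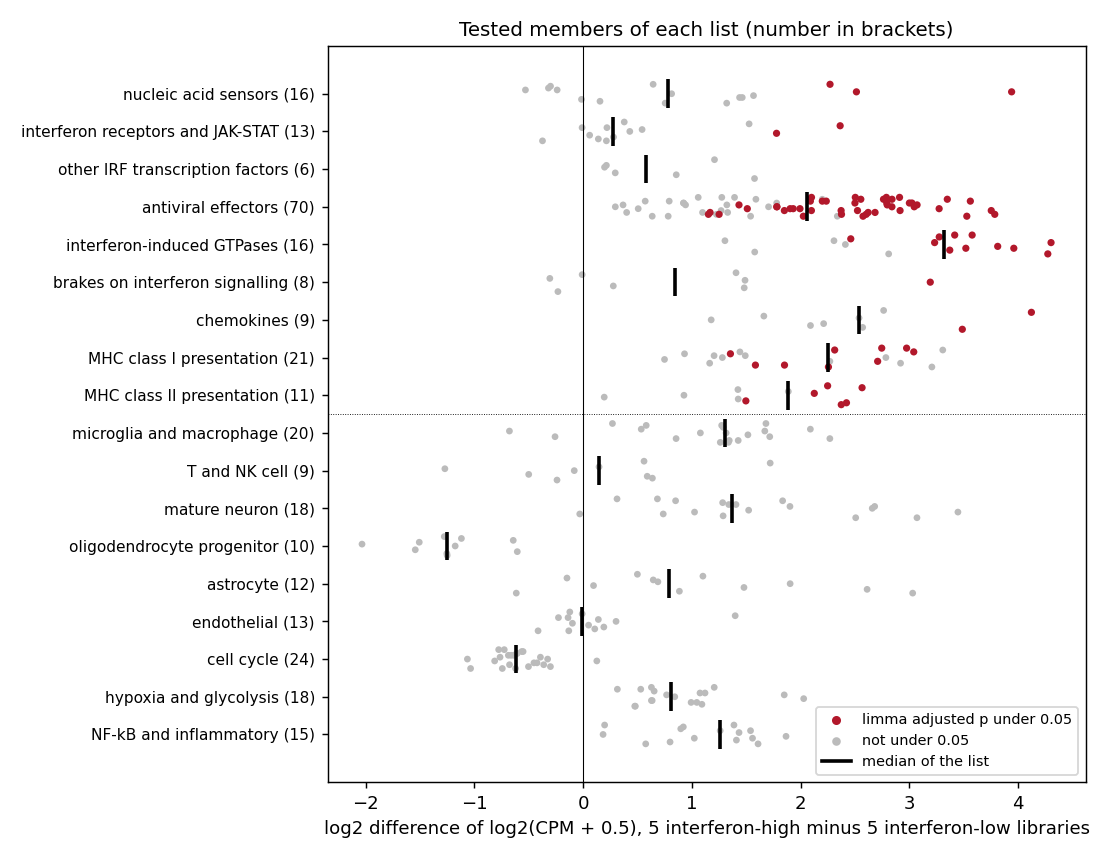
Log2 difference between the 5 interferon-high and 5 interferon-low libraries for each tested member of 18 lists (points; red, limma adjusted p under 0.05) with the list median as a bar. Interferon, chemokine and antigen presentation lists are above the dotted line, and cell type and programme lists, with no red point, below it. All antiviral effectors and all GTPases lie right of 0.

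Of the 111 genes called higher, 32 were in none of the lists. Iigp1, an immunity-related GTPase on chromosome 18, had 308, 47.0, 46.8, 60.1 and 42.4 CPM in high libraries and 2.44, 5.39, 1.58, 1.05 and 2.12 CPM in low ones (4.71 ± 0.56). Hcar2, a metabolite receptor of myeloid cells, had 7.35 to 28.6 CPM in high and 0.830 to 1.96 CPM in low libraries (3.20 ± 0.40). Lgals9, encoding galectin 9, had 90.9 to 199.9 CPM in high and 23.1 to 40.8 CPM in low libraries (1.86 ± 0.24). Fcgr4, an Fc receptor of myeloid cells, had 11.2 to 40.6 CPM in high and 1.03 to 4.58 CPM in low libraries (2.78 ± 0.40). Ly6a, the interferon-responsive surface protein Sca-1, had 17.4 to 111 CPM in high and 5.17 to 9.05 CPM in low libraries (2.79 ± 0.46). Cd72, Naaa and Pik3ap1 were also among those named by rule, with log2 differences of 2.25 ± 0.35, 2.90 ± 0.47 and 1.75 ± 0.28.

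The 4 genes called lower were Mycl, Dusp15, Mphosph9 and Pcdhb21. Mycl, a Myc family member, had 14.1, 17.3, 15.5, 9.28 and 10.1 CPM in high libraries and 40.4, 47.0, 63.4, 24.1 and 27.9 CPM in low ones (-1.53 ± 0.29). Dusp15, a phosphatase of the oligodendrocyte lineage, had 10.9 to 36.6 CPM in high and 39.9 to 132 CPM in low libraries (-2.08 ± 0.41). Mphosph9 and Pcdhb21 differed by -1.08 ± 0.21 and -1.41 ± 0.27. The middle libraries did not lie between the sets for 2 of the 4, and with median-of-ratios scaling 1 gene was called lower.

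Of 20 microglia and macrophage markers 18 had positive differences, with a median of 1.30, and none was called. A total of 5 were higher without overlap, against 1.71% of all tested genes. Without floxed G34R replicate 1, 19 of 20 differences were positive, with a median of 1.63 and 9 called. Without intact WT replicate 3 this was 17 of 20, with a median of 0.98 and none called. The summed level was 3937, 7847, 5197, 6065 and 3369 CPM in high libraries and 2982, 3336, 2755, 2764 and 2561 CPM in low ones, and Apoe, which astrocytes also express, made up 1996 to 3911 and 1128 to 2249 CPM of it. Without Apoe the sums were 890.2 to 4069 CPM in high and 813 to 1433 CPM in low libraries, and the sets overlapped. In intact WT replicate 2, the highest of the low set, Tmem119 alone gave 569 CPM. C1qa, C1qb and C1qc, complement genes of microglia, summed to 349 to 1907 CPM in high and 253 to 311 CPM in low libraries.

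The order of the libraries was not the same for the markers and the effectors, as given here for libraries chosen after their values were seen. Floxed WT replicate 1, a middle library, had the largest macrophage sum with Apoe, 14012 CPM (10300.0 CPM of it Apoe). Its effectors were at 2705 CPM, below every high library. Without Apoe its macrophage sum was 3712 CPM, below 2 high libraries, intact WT replicate 3 (4069 CPM) and floxed G34R replicate 4 (3936 CPM). Floxed WT replicate 4 had the highest effectors, 6808 CPM, with 3937 CPM of macrophage markers. Floxed G34R replicate 1 and floxed G34R replicate 2 had nearly equal macrophage sums, 3369 and 3336 CPM, and effectors at 3248 CPM in the interferon-high one and 1314 CPM in the interferon-low one. With the summed markers as a covariate the median of the effectors was 2.11 and 68 of 70 were positive, and limma called no gene (295 at an unadjusted p under 0.05). With Apoe left out the median was 2.21, 69 of 70 were positive and 9 genes were called. The sum with Apoe was 3369 to 7847 CPM in high and 2561 to 3336 CPM in low libraries, without overlap. That covariate and the split therefore cannot be told apart, and nothing is read from the adjusted medians. How much of the difference lies in macrophages was not tested.

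**Figure D5:**
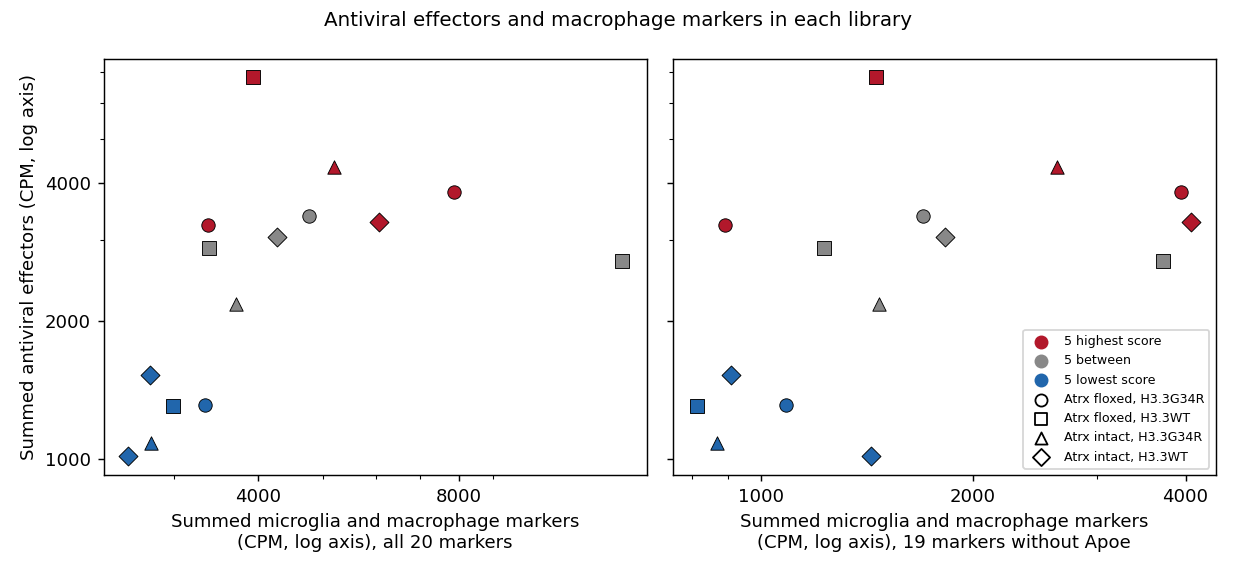
Summed CPM of antiviral effectors (y axis) against summed CPM of microglia and macrophage markers (x axis), both on log axes, in the 15 libraries; the right panel leaves out Apoe. Red, grey and blue are the 5 highest, middle and lowest scores, and shapes are the 4 groups. The middle library at the far right of the left panel has 14012 CPM of markers and 2705 CPM of effectors.

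Other cell types and programmes gave no call in either direction with all 10 libraries. Erythroid genes were lower in 7 of 7, with a median of -1.93 and sums of 39.2 to 6553 CPM in high and 119.5 to 15275 CPM in low libraries, which overlapped; the median was -1.05 without intact WT replicate 3 and -2.93 without intact WT replicate 2. Mature oligodendrocyte markers were higher in 10 of 12, with a median of 1.17, and 0.43 without intact WT replicate 3. Astrocyte markers were higher in 10 of 12, with a median of 0.79, and 0.48 without that library. All 15 NF-kB and inflammatory genes had positive differences, with a median of 1.26. Their sums, 305 to 857 CPM in high and 217 to 484 CPM in low libraries, overlapped. The median was 0.83 without floxed G34R replicate 4 and 1.68 without floxed G34R replicate 2. All 18 hypoxia and glycolysis genes had positive differences too, with a median of 0.81 and overlapping sums. This median was 0.51 without intact G34R replicate 1 or intact WT replicate 1, and 1.03 without intact WT replicate 3. Of 24 cell cycle genes 23 were lower in the high set, with a median of -0.62. The median was -0.31 without intact WT replicate 3, -0.33 without intact WT replicate 2 and -0.89 without floxed G34R replicate 4. Mki67 had 370.1, 489, 144, 88.0 and 265 CPM in high libraries and 570.1, 431, 437, 223 and 1024 CPM in low ones, and the sets overlapped. All 10 oligodendrocyte progenitor markers were lower, with a median of -1.25, and without intact WT replicate 3 this was 8 of 10 with a median of -0.64. Neuron markers were higher in 17 of 18, with a median of 1.37, but in 10 of 17 with a median of 0.34 without that library. Immunoglobulin genes were high in 2 high libraries, where Igkc had 2159 and 361 CPM, against 1.15 to 34.04 CPM in the other 3 high libraries and 3.11 to 22.4 CPM in the low ones. Endothelial markers had a median of -0.01, with 6 of 13 positive, and 0.20 with 10 of 13 positive without floxed WT replicate 4. The part of these cell types in the difference was not tested.

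The comparison was also made within libraries of like Xist level. In the Xist-low libraries, 2 high and 4 low, all 70 effectors were higher in the high set, with a median log2 difference of 1.96. In the Xist-high libraries, 3 high and 1 low, this was 67 of 70 with a median of 1.77. The GTPases gave medians of 2.78 and 3.54, with 16 of 16 positive in each. Both comparisons reuse the sets chosen on the score, so nothing is read from these medians about sex. With Xist status as a covariate, 46 genes were called, all of them among the 115.

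No antiviral effector was called between the labelled groups, which the score did not define. Summed effectors were 1304 to 6808 CPM with a median of 3072 in floxed tumours, and 1014 to 4351 CPM with a median of 2184 in intact tumours. They were 1085 to 4351 CPM with a median of 3248 in H3.3G34R tumours, and 1014 to 6808 CPM with a median of 2800.4 in H3.3WT tumours. Over all 15 libraries none of the 70 effectors was called by Atrx status (lowest adjusted p = 0.716, limma; 3 at an unadjusted p under 0.05), against 18 of all 16978 genes (0.106%; 9 higher and 9 lower, 0.053% each). Of the 70, 68 had positive differences, with a median of 0.49, against -0.00 over all genes. The median was 0.25 without floxed WT replicate 4 or without intact G34R replicate 2, 0.30 without intact WT replicate 2 and 0.75 without intact G34R replicate 1. None was called by histone, or for the interaction of Atrx status and histone, with none at an unadjusted p under 0.05 in either fit. For histone 50 of 70 were positive, with a median of 0.15, and no gene at all was called (0%), and for the interaction 25 of 70, with a median of -0.15 and again no call (0%). The signs of these medians rest on single libraries. The histone median was -0.12 (23 of 70 positive) without intact G34R replicate 1 and 0.40 (63 of 70) without intact G34R replicate 2, and was also below 0 without floxed WT replicate 3 or intact WT replicate 2 and with DESeq2. The interaction median was 0.42 (58 of 70) without intact G34R replicate 1 and -0.76 (4 of 70) without intact G34R replicate 2, and was above 0 without floxed WT replicate 4, floxed G34R replicate 2 or intact WT replicate 1 or 2. Ifit1 differed by 1.12 ± 0.75 on the log2 scale between floxed and intact tumours (SE; limma, adjusted p = 0.951), Isg15 by 0.49 ± 0.81 (adjusted p = 0.985) and Irf7 by 0.84 ± 0.73 (adjusted p = 0.958). With edgeR and with DESeq2 no effector was called in any of the 3 contrasts. A p that misses the threshold does not show that the groups were alike.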

How the data were processed

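RNA of 15 mouse tumours was sequenced from TruSeq mRNA libraries, per the labels' protocols. Reads were aligned to mm10 with STAR 2.7, counted with HTSeq and normalized with DESeq2, per the submitters' processing notes. The deposited values are a signal: counts divided by a size factor of each library. Dividing each column by its smallest nonzero value gave whole reads for 100.0% of values (tolerance 0.01), in 38 library columns of 5 tables with 54232 genes. The authors' tables also hold DESeq2 log2 fold changes, Wald statistics and standard errors (unit score) and p-values, which were not used. Gene IDs were matched to GENCODE vM21 (99.876%).

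Reads were scaled to CPM over reads in genes (22807315 to 35679129 per library). Genes with a mean of at least 0.5 CPM were tested on log2(CPM + 0.5) with limma 3.58.1 (trend and robust) in R 4.3.3, with Benjamini-Hochberg adjustment over all genes and a threshold of 0.05. The label contrasts used all 15 libraries, with Atrx status and histone as factors. A fold change on this scale understates the change of low genes. Count tests on the recovered reads called 94 genes with edgeR 4.0.16 and 589 with DESeq2 1.42.0, against 115 with limma. The code was tested on simulated data.

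The genes named were the score genes, the engineered genes, up to 12 called genes in each direction outside the lists with the smallest p and no overlap, and up to 5 tested members of each pathway list with the smallest p; other genes were named for their role or after their values were seen. The members, lists and rules were chosen with earlier results of these data known. P-values measure the spread between libraries, which may be technical where libraries are not separate mice. Promoters came from RefSeq tables on GRCm38.p6. Some members that the rule names are not reported here.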

Additional observations from a re-analysis of the deposited data

Results flagged for a closer look

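Of 258 groups of 4 or 5 libraries examined for a sample far from the others, 25 (9.69%) had one by Dixon's test at the 95% level, where chance gives about 1 in 20. Each is a value of a single library.

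In the interferon-high set, intact WT replicate 3 stood far from the other 4 libraries with the lowest Pdgfa (40.6 CPM) and Pdgfra (179 CPM), the highest Camk2a (2184 CPM), and summed markers of 10516 CPM for neurons, 942 CPM for oligodendrocyte progenitors and 10469 CPM for astrocytes. Floxed WT replicate 4 was far above the others in Iigp1 (308 CPM), Lgals9 (199.9 CPM) and Oasl2 (343 CPM). Floxed G34R replicate 1 was far below them in Zbp1 (11.7 CPM), Gbp2 (13.02 CPM) and Cnp (196 CPM).

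In the interferon-low set, floxed G34R replicate 2 was far above the others in Hcar2 (1.96 CPM) and Egr1 (1156 CPM), and in the sums of the other IRF factors (281 CPM), the GTPases (390.0 CPM), the immediate early genes (3449 CPM) and the NF-kB genes (484 CPM). Intact WT replicate 1 was far above them in Xist (1320.1 CPM) and Ly6a (9.05 CPM), and far below in H3f3b (266 CPM), Pdgfa (374 CPM) and Fn1 (222 CPM). Ifi209 was lowest in intact G34R replicate 2 (0.523 CPM), and Apoe in intact WT replicate 2 (1128 CPM).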

How the results depend on the processing

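All 115 genes called between interferon-high and interferon-low libraries had the same direction in every setting in which they were tested. The number called was 589 with DESeq2 (530 higher, 59 lower), 46 with Xist status as a covariate, 64 for the 4 highest against the 4 lowest and 61 for the 7 highest against the 7 lowest. It was 45 to 184 when each library was left out in turn. In 2 settings chosen after seeing the data, limma called 0 genes with summed macrophage markers as a covariate (295 at an unadjusted p under 0.05) and 9 with Apoe left out of that sum. Other scalings, pseudocounts, filters, edgeR, limma-voom and the Atrx or histone covariate gave 91 to 150. The middle libraries as a further group, summed libraries of a shared title code and the score as a number over 15 libraries gave 132 to 167. Scores without 1 of the score genes or on median-of-ratios counts chose the same 5 high and 5 low libraries. Those runs therefore repeated the main fit, with 115 called. The lower calls were 4 with CPM, 1 with median-of-ratios scaling, 0 with TMM and 0 with edgeR, and the median of all genes was -0.04, 0.01 and -0.00 under the 3 scalings. Named genes were followed one by one only under the other scalings, pseudocounts and filters and with each library left out. Of those values, 1456 stayed on their side of the threshold, 112 lost their call and 8 gained it. The covariates, the other tests and the other splits, some with far fewer calls, were not part of this count. List medians near 0 (neutrophil, endothelial, mural, T and NK cell) changed sign in some settings. With summed macrophage markers as a covariate the medians of the B and plasma cell list (-1.41, against 1.21 without it), the mature oligodendrocyte list (-0.72, against 1.17) and the immediate early list (-0.25, against 0.53) turned negative; the cause was not tested. The median of the other IRF factors moved to 1.03 with a filter at 5 CPM. No antiviral effector was called by Atrx status, histone or their interaction in any setting run. No paired analysis was possible because the labels give no replicate numbers; those used here only name libraries, and the shared title codes lie within single groups. Depth limits the interferon ligands, which had at most 22 reads for Ifnb1 and 8 for Ifng in a library. The sets share their libraries with the score that chose them, so these settings do not test the split itself.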

Other observations

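Some values of single libraries, chosen after they were seen, are given without a test. Ifi202b, a member of the Ifi200 family, had 0.0416 CPM in floxed WT replicate 2, a middle library, and at least 1.62 CPM in the other 14 libraries. In the same library Xaf1 had 130.4 CPM and Ifit3 had 77.5 CPM.

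Tmem119, a microglial marker, had 569 CPM in intact WT replicate 2, against 10.9 to 26.01 CPM in the other 4 interferon-low libraries.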
